A study of Mus musculus with 30 samples.

Results

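Blood vessels run through every brain region. Here 38 genes that mark vessel cells were followed in RNA precipitated with tagged ribosomes from nucleus accumbens. The members were the rows of the count table whose gene identifiers matched 38 listed symbols, 26 of endothelial cells and 12 of mural cells, out of 55335 genes in the table. All 38 were found, and all 38 were among the 19368 genes that passed the filter on low counts. Had the filter seen only the D1 libraries, 37 would have passed, the exception being Anpep. The list was drawn up with results of these data known: Ly6a and Ly6c1 had stood out between the Control libraries of both driver lines, and Arhgef15 between Susceptible and Resilient D2 libraries.

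The mice were females of the lines D1-Cre-RT and A2A-Cre-RT, in which Cre, named for the dopamine D1 or the adenosine A2A receptor gene, switches on an HA-tagged ribosomal protein (RiboTag, RT). Libraries of the A2A-Cre-RT line are called D2, as in their titles; in the striatum the neurons with A2A receptors also carry dopamine D2 receptors. Both lines carry Cre and the tag in all 3 groups, Control included. Control mice were compared with mice that went through chronic witness defeat stress (CWDS) and were called Resilient or Susceptible by a social interaction (SI) test, and their ages do not stand in the labels. Each of the 6 groups held 5 libraries, 30 in all, and each library pooled nucleus accumbens punches of 4 mice of similar SI ratio, taken 24 h after that test. Cells were defined by Cre alone, and libraries of unprecipitated tissue were not analysed here. No label says that the pools of a group came from separate cohorts, so p-values measure the spread between these libraries.

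Endothelial cells line every vessel. In the brain they are sealed by tight junctions and carry transporters that move glucose, lipids and drugs across the blood-brain barrier, and their growth and survival depend on vascular endothelial growth factor and angiopoietin receptors. Mural cells wrap the endothelium: pericytes on capillaries, which answer platelet-derived growth factor, and smooth muscle cells with contractile fibres on arterioles. Neither type is a target of the Cre lines by name.

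Gene counts per library ran from 28996168 to 65882152, and reads not assigned to a gene from 10.1% to 53.3%. Levels are counts-per-million values (CPM) on library sizes scaled by the trimmed mean of M values (TMM). Across 1140 values of 38 genes in 30 libraries, 11 values in 5 genes were at 0, and a count of 0 allows up to 3 counts, or 0.0430 to 0.304 CPM by library. Such limits cover counting error only. The 3 D1 neuron genes Drd1, Pdyn and Tac1 were lower and the 3 D2 neuron genes Drd2, Adora2a and Penk higher in D2 than in D1 libraries of both stressed groups, all past the threshold. Of 4 libraries that stood apart, D1 Susceptible replicate 1 had the 28996168 counts, 54.9% of them in a single feature, Gm42418. D2 Susceptible replicates 1 and 2 had the fewest genes with a count, 15822 and 16525. D2 Resilient replicate 5 held Drd1 at 414 CPM, against 56.4 to 95.2 CPM in the other 4 of its group, and Adora2a at 491 CPM, the lowest of the 15 D2 libraries.

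Vessel genes were far more abundant in D2 than in D1 libraries in every stress group. In Resilient mice 32 of 38 members were higher in D2 at an edgeR adjusted p under 0.05 and none was lower, where 3.9% of all genes tested were higher and 6.65% differed in either direction. In Susceptible mice 34 of 38 were higher and none lower, where 13.4% of all genes tested were higher and 23.9% differed in either direction. The endothelial median log2 difference was 3.05 in Resilient and 2.45 in Susceptible, the mural median 3.87 and 2.37, and the median over all genes tested 0.0035 and -0.017. Read as a fold, the members ran from 1.02 for Egfl7 to 44.0 for Vtn in Resilient mice. These libraries held RNA precipitated with tagged ribosomes, and no unprecipitated tissue was analysed, so where the vessel RNA in them came from was not tested. Fewer cells of a type and less RNA per cell cannot be told apart in them either.

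Anpep passed the filter on low counts through the D2 libraries, where it is high, and Arhgef15 was listed for its level in D2 Susceptible libraries, so their calls are not independent of how they were kept or chosen. Without Anpep 31 of 37 members were called in Resilient mice, and without both genes 32 of 36 in Susceptible mice. With only the groups compared in the fit, 28 of 38 were called in Susceptible mice. Both stressed comparisons were made in libraries that the Control comparison did not use. In Control mice, which had pointed to 2 of the members, the members' differences are a description and no call of theirs is given: all 38 had higher fitted means in D2, with medians of 3.00 over the endothelial and 3.41 over the mural genes. The lines did not overlap for 34 members (6.05% of all genes tested), and 32 were over 2-fold higher in D2 (8.45% of all genes). At the same threshold 4.8% of all genes were higher in D2 in Control mice and 8.3% differed in either direction. With all 4 libraries that stood apart left out, an alternative chosen after seeing the data, 34 members were called in Resilient and 34 in Susceptible mice, all higher in D2. Acta2 and Tagln were gained in Resilient mice (edgeR adjusted p = 0.0364 and 0.00867), and in Susceptible mice Bsg was gained (0.00111) and Egfl7 lost (0.345).

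**Figure D1:**
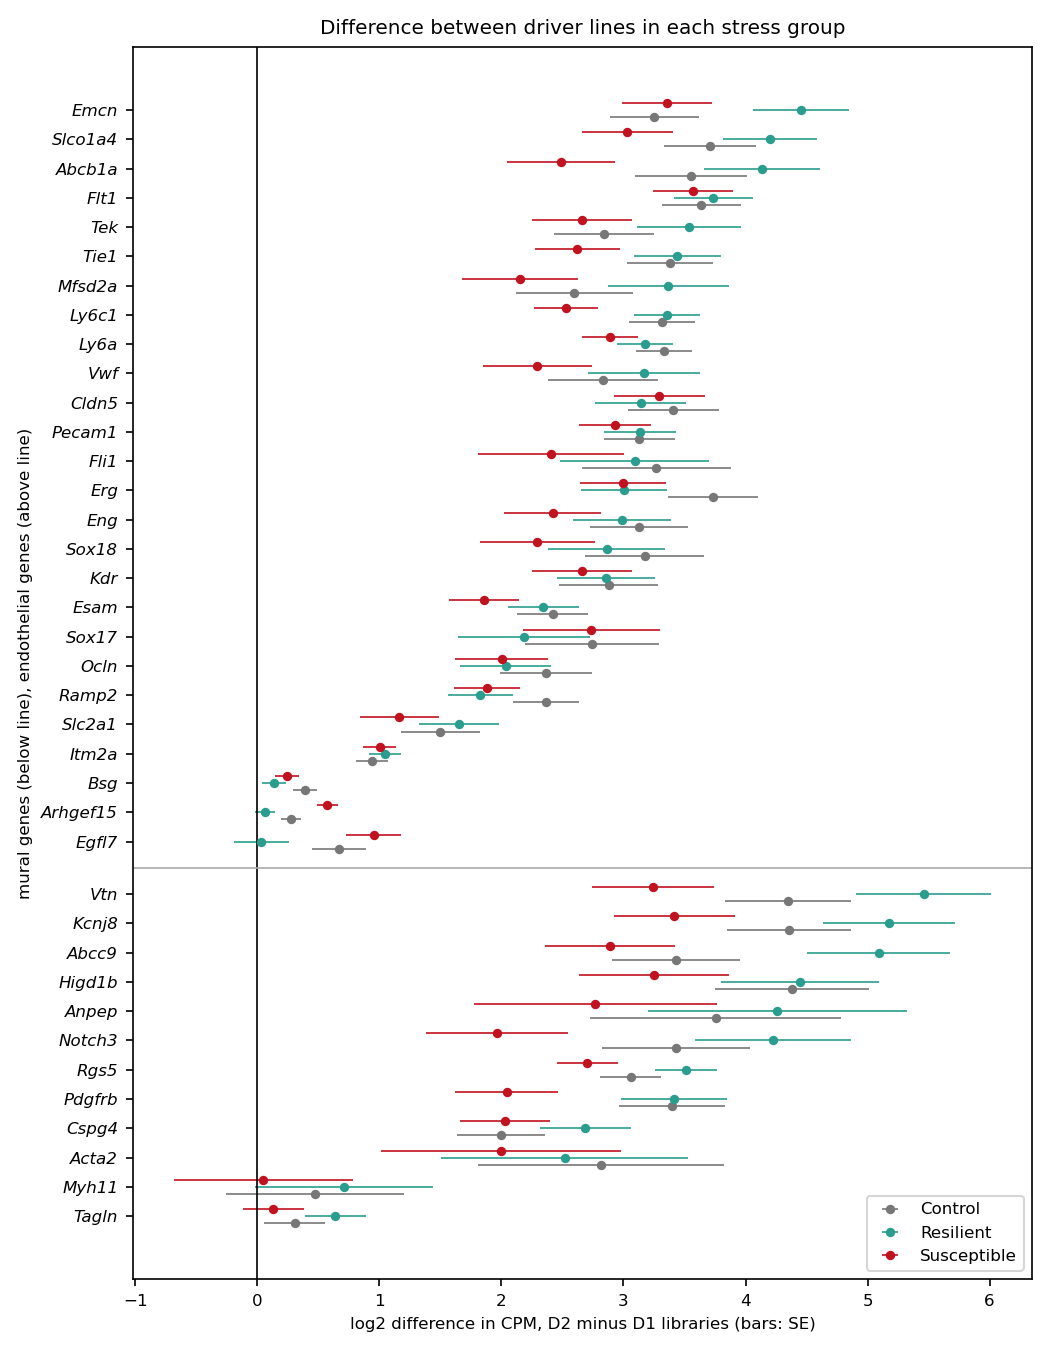
Log2 difference in CPM between D2 and D1 libraries (x axis) for each of 38 genes (y axis, endothelial above the line, mural below) in Control, Resilient and Susceptible mice, with bars of 1 standard error. Most points lie right of 2, while Bsg, Egfl7, Arhgef15, Tagln and Myh11 lie between 0 and 1.

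A promoter window was read for the members with an entry in the RefSeq table of GRCm38.p6. It ran from 250 bases before to 50 after the start used in that table. GENCODE M21, the source of the gene names, can place the start elsewhere. There Tie1 and Acta2, on the minus strand, start at bases 118490061 and 34255590. Much of their windows therefore lies inside the gene as annotated there. The table gave 30 windows of 24 members. Each was searched on both strands for GGAAG, a core shared by sites of the ETS family, to which the members Erg and Fli1 belong; on the other strand it reads CTTCC. It stood in 15 of 22 endothelial windows (68.2%), in 3 of 8 mural windows (37.5%), and in 71.4% of all 32851 promoter windows of that length, so a match was no commoner among the members. The windows printed are those of Flt1, Tie1, Vtn and Acta2. The endothelial receptors Flt1 and Tie1 were called higher in D2 in both stressed groups. Vtn had the largest difference of the members in Resilient mice, and the smooth muscle actin Acta2 did not pass the test. Capitals mark the matches, 3 in Flt1 (chr5:147725962-147726261, minus strand), 7 in Tie1 (chr4:118489800-118490099, minus strand), 1 in Vtn (chr11:78498870-78499169, plus strand) and 2 in Acta2 (chr19:34255324-34255623, minus strand), each sequence written 5′ to 3′ on the strand of its gene.
Flt1: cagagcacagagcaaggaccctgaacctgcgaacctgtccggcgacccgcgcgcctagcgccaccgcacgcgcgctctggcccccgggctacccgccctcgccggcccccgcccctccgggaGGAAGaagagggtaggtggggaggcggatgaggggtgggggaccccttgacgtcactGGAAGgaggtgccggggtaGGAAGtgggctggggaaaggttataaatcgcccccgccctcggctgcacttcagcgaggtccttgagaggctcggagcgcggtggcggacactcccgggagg
Tie1: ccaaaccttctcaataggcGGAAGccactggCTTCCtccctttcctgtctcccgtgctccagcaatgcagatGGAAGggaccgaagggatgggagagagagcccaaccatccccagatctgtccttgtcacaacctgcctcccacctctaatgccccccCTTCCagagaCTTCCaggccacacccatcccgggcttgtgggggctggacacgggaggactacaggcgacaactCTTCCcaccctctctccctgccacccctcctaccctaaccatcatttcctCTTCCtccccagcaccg
Vtn: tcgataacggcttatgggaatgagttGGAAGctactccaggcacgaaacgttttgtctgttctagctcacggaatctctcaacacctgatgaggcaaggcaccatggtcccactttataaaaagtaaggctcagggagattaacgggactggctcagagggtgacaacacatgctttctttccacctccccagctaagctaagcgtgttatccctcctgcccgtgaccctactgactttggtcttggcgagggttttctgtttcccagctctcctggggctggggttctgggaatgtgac
Acta2: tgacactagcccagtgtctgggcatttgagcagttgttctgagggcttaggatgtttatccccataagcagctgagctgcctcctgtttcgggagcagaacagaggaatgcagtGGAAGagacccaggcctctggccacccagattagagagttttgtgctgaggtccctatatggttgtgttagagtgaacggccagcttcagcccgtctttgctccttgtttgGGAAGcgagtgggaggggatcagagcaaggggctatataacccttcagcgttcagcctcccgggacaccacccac
A match describes the letters and says nothing of binding. Vtn and Acta2, on different sides of the threshold, each held the motif.

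A pair of surface proteins of brain endothelium opens the list, Ly6a and Ly6c1, neighbours on chromosome 15 (GRCm38, 74994877 to 74998031 and 75044018 to 75048830) from a family of similar genes, so reads could be split among copies. Ly6a in D1 libraries was at 4.20, 2.03, 2.28, 2.05 and 2.65 CPM in the 5 Control, 2.55, 2.48, 2.63, 2.23 and 2.60 CPM in the Resilient and 4.16, 3.32, 3.01, 6.04 and 3.45 CPM in the Susceptible libraries. In D2 libraries it was at 30.1, 24.7, 22.5, 33.9 and 22.4 CPM in Control, 24.2, 25.3, 27.4, 24.8 and 11 CPM in Resilient and 36.3, 25.4, 31.7, 28.8 and 25.4 CPM in Susceptible. Every D2 library lay above every D1 library, and D2 Resilient replicate 5 was the lowest of the D2 libraries. The difference was 3.17 in Resilient mice (SE 0.229, edgeR adjusted p = 1.68e-10) and 2.89 in Susceptible mice (SE 0.227, edgeR adjusted p = 1.59e-09). Ly6c1 ranged over 1.74 to 3.32 CPM in D1 and 12.7 to 34.7 CPM in D2 Resilient libraries, a log2 difference of 3.36. In Susceptible mice its ranges were 3.63 to 5.67 and 16.3 to 33.6 CPM, a log2 difference of 2.53, again without overlap.

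All 4 junction and adhesion genes were higher in D2 in both stressed groups, and in none of the 4 did the lines overlap. Cldn5, the main claudin of the blood-brain barrier, was at 10.5, 5.99, 4.39, 3.45 and 5.19 CPM in D1 Control, 4.27, 5.78, 3.97, 4.12 and 4.80 CPM in D1 Resilient and 6.09, 4.37, 3.63, 12.7 and 7.35 CPM in D1 Susceptible libraries. Its D2 values were 64.8, 64.0, 35.1, 102 and 48.7 CPM in Control, 44.8, 43.7, 54.0, 46.0 and 13.9 CPM in Resilient and 102, 70.0, 56.2, 58.8 and 49.1 CPM in Susceptible libraries. The highest D1 value, in Susceptible replicate 4, came close to the lowest D2 value, in Resilient replicate 5. Cldn5 differed by 3.14 in Resilient (SE 0.371) and 3.30 in Susceptible mice (SE 0.374). Ocln, the tight junction protein occludin, differed by 2.04 and 2.00, Esam, an adhesion molecule of endothelial contacts, by 2.34 and 1.86, and Pecam1, the CD31 antigen, by 3.13 and 2.93, in the same order.

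Endothelial receptors and receptor partners followed the same course, with 6 of 6 higher in D2 in both stressed groups and no overlap between lines in any of them. Flt1, the vascular endothelial growth factor receptor VEGFR-1, whose promoter is printed above, was at 7.78, 5.98, 4.73, 4.43 and 6.04 CPM in D1 Control, 4.57, 4.95, 3.04, 4.06 and 3.60 CPM in D1 Resilient and 13.2, 5.74, 4.62, 8.66 and 8.29 CPM in D1 Susceptible libraries. In the D2 line it was at 69.6, 71.0, 50.5, 108 and 61.4 CPM in Control, 56.8, 64.9, 67.7, 63.4 and 17.3 CPM in Resilient and 141, 109.9, 69.5, 78.9 and 64.9 CPM in Susceptible libraries. D2 Susceptible replicates 1 and 2 were high and D2 Resilient replicate 5 low for this gene. Flt1 had the largest endothelial difference in Susceptible mice, 3.57 (SE 0.325, edgeR adjusted p = 4.65e-08), and differed by 3.74 in Resilient mice.

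Tek, the angiopoietin receptor also called TIE2, averaged 0.878 ± 0.314 CPM in D1 and 10.2 ± 3.33 CPM in D2 Resilient libraries (SD, n = 5), a log2 difference of 3.54. In Susceptible libraries it averaged 2.24 ± 1.33 and 13.6 ± 3.66 CPM (SD, n = 5), a log2 difference of 2.66. Its orphan relative Tie1 differed by 3.44 in Resilient and 2.62 in Susceptible mice. Kdr, the main signalling receptor for vascular endothelial growth factor, differed by 2.86 and 2.66, and Eng, a co-receptor for transforming growth factor beta ligands, by 2.99 and 2.42. Ramp2, the partner protein of the adrenomedullin receptor, had the smallest difference of the 6, 1.83 in Resilient and 1.88 in Susceptible mice. An exon of Fpgs overlaps Eng on the other strand and one of Vps25 overlaps Ramp2 on the same strand, so counts of these genes are uncertain.

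Transporters of the barrier split by gene. Slco1a4, an organic anion carrier found at brain capillaries, was at 2.47, 1.75, 1.94, 1.68 and 1.92 CPM in D1 Control, 1.8, 0.986, 0.972, 1.67 and 1.85 CPM in D1 Resilient and 8.02, 1.63, 1.79, 4.10 and 2.29 CPM in D1 Susceptible libraries. Its D2 levels were 28.9, 31.4, 22.6, 22.3 and 22.6 CPM in Control, 31.2, 31.9, 34.9, 27.2 and 8.87 CPM in Resilient and 30.3, 12.2, 35.6, 28.1 and 27.7 CPM in Susceptible libraries. The D1 values stayed below 3 CPM except in Susceptible replicates 1 and 4. The log2 difference was 4.20 in Resilient (SE 0.388, edgeR adjusted p = 2.38e-08) and 3.03 in Susceptible mice (SE 0.372, edgeR adjusted p = 1.95e-06). Abcb1a, the drug pump P-glycoprotein, ranged over 0.425 to 1.02 CPM in D1 and 6.29 to 16.3 CPM in D2 Resilient libraries, and over 0.644 to 7.41 and 9.21 to 20.3 CPM in Susceptible ones. Its log2 differences were 4.13 and 2.49. Mfsd2a, which carries lysophospholipids with omega-3 fatty acids into the brain, ranged over 0.0827 to 0.862 and 3.16 to 8.78 CPM in Resilient libraries, and its log2 differences were 3.37 and 2.16.

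Slc2a1, the glucose transporter GLUT1, differed less: it was at 14.0, 13.6, 13.7, 11.7 and 11.6 CPM in D1 and 30.6, 48.1, 45.5, 54.2 and 25.2 CPM in D2 Resilient libraries, which differed by 1.66 (log2, SE 0.327, edgeR adjusted p = 0.00113). In Susceptible libraries it was at 21.5, 14.9, 12.1, 17.3 and 17.0 CPM in D1 and 17.3, 9.40, 67.5, 45.1 and 44.5 CPM in D2, a smaller log2 difference, 1.16 (edgeR adjusted p = 0.0108). The lines overlapped there, with D2 Susceptible replicates 1 and 2 low, and without both of them the difference was 1.66. Bsg, a widely expressed partner of monocarboxylate transporters, did not pass the test in either stressed group. It ranged over 400.0 to 432 CPM in D1 and 410.3 to 505 CPM in D2 Resilient libraries (log2 difference 0.14, edgeR adjusted p = 0.631) and over 323 to 419 and 308 to 511 CPM in Susceptible libraries (log2 difference 0.25, edgeR adjusted p = 0.0644). Without D2 Susceptible replicate 2 the latter became 0.33, with an edgeR adjusted p of 0.00753.

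Among other endothelial products, Emcn, a mucin-like surface glycoprotein, had the largest endothelial difference in Resilient mice. It ranged over 0.129 to 0.435 CPM in D1 and 3.56 to 6.64 CPM in D2 Resilient libraries, which differed by 4.45 on the log2 scale (SE 0.394, edgeR adjusted p = 6.4e-09), and differed by 3.36 in Susceptible mice. Vwf, the clotting protein von Willebrand factor, differed by 3.17 and 2.29, with an overlap in Susceptible libraries between D2 replicate 1 and D1 replicate 1. Itm2a, a membrane protein, was already at 19.0 to 21.5 CPM in D1 Resilient libraries and at 30.8 to 50.6 CPM in D2, which differed by 1.05 on the log2 scale. Egfl7, a secreted vessel protein, had the smallest difference in Resilient mice, 0.03 (edgeR adjusted p = 0.991). In Susceptible mice it differed by 0.96 (edgeR adjusted p = 0.00299), with D2 values of 33.9, 22.8, 11.6, 14.7 and 11 CPM. That call rested on D2 Susceptible replicates 1 and 2, since without both the difference was 0.34 (edgeR adjusted p = 0.258). Exons of Gm20532 and Mir126a overlap Egfl7 on the same strand and those of Agpat2 on the other, so its counts are uncertain whether or not the counting used strand, which is not known here.

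The endothelial transcription factors Erg and Fli1 of the ETS family and Sox17 and Sox18 of the SOX family were all higher in D2 in both stressed groups. Erg differed by 3.01 in Resilient and 3.00 in Susceptible mice, from D1 levels of 0.388 to 0.862 and 0.494 to 1.75 CPM. Fli1 differed by 3.09 and 2.41, and Sox18 by 2.86 and 2.29. Sox17, among the least abundant endothelial members, ranged over 0.124 to 0.658 CPM in D1 and 1.01 to 2.26 CPM in D2 Resilient libraries, and over 0.147 to 1.01 and 2.11 to 2.85 CPM in Susceptible ones, for differences of 2.19 (edgeR adjusted p = 0.0081) and 2.74 (edgeR adjusted p = 0.000872). Arhgef15, an exchange factor that activates RhoA in vessels and in neurons, stood apart from these. It was at 29.1, 32.6, 29.5, 33.5 and 32.6 CPM in D1 Control, 33.1, 34.1, 32.9, 40.6 and 33.6 CPM in D1 Resilient and 30.5, 32.0, 34.7, 36.3 and 29.9 CPM in D1 Susceptible libraries. In D2 it was at 39.7, 34.4, 38, 39.3 and 38.8 CPM in Control, 39.7, 33.8, 37.1, 36.3 and 35.5 CPM in Resilient and 51.5, 56.2, 48.1, 45.8 and 42.2 CPM in Susceptible libraries. The lines overlapped in Resilient mice, with a log2 difference of 0.06, and not in Susceptible mice, with 0.57. Both values are a description, since D2 Susceptible against D2 Resilient libraries put the gene on the list.

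**Figure D2:**
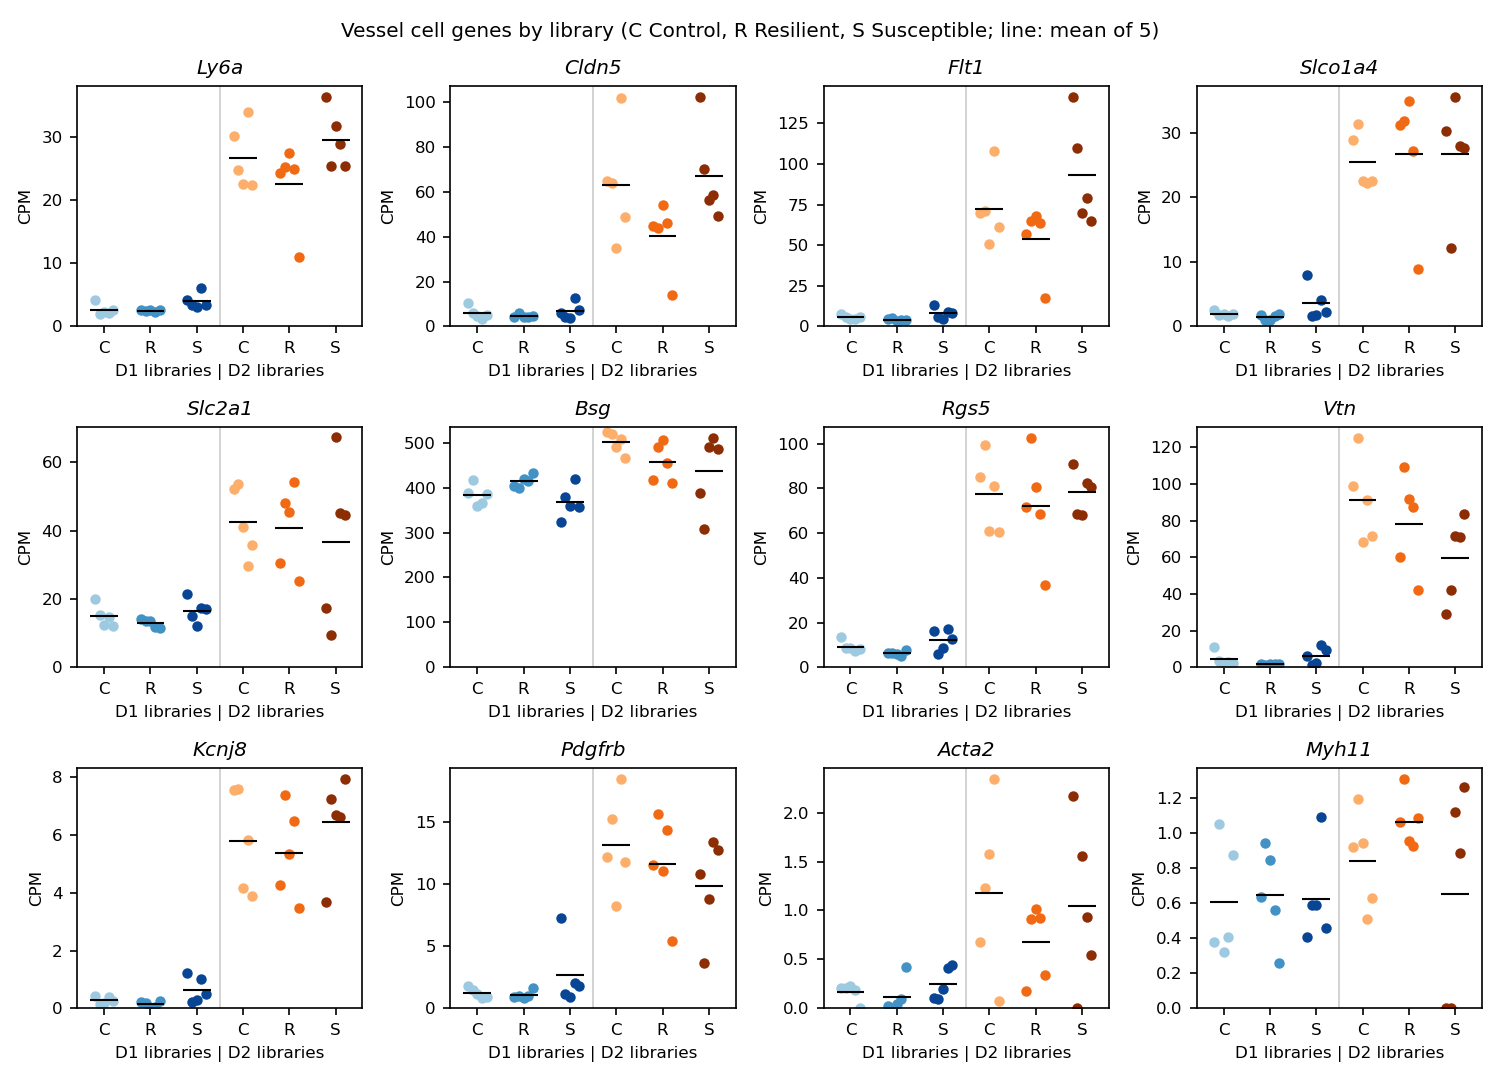
CPM of single genes (y axis, linear from 0) in each of 30 libraries (points), by group (x axis: Control, Resilient and Susceptible, D1 left and D2 right of the line), with the mean of 5 libraries as a bar. Ly6a, Flt1 and Vtn sit low in D1 and high in D2 libraries, while Bsg and Myh11 lie closer together in both lines.

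Mural genes were grouped as those of pericytes and of smooth muscle, and the groups were not tested against each other. All 9 pericyte genes were called higher in D2 in both stressed groups (8 of 8 without Anpep), with medians of 4.26 in Resilient and 2.77 in Susceptible mice (3.43 in Control). None of the 3 smooth muscle genes passed the edgeR test in either group, with medians of 0.71 and 0.13 (0.47 in Control). At an unadjusted p under 0.05 there were 2 in Resilient and 0 in Susceptible mice, against 2945 and 7084 of 19368 genes tested. DESeq2 called none in either, and voom called Acta2 and Tagln in Resilient mice (adjusted p = 0.00458 and 0.0382). Vtn, the adhesive glycoprotein vitronectin made by brain pericytes, had the largest difference of the 38 in Resilient mice. It was at 11.2, 3.18, 2.37, 2.88 and 2.40 CPM in D1 Control, 1.86, 1.49, 1.74, 1.74 and 2.05 CPM in D1 Resilient and 6.09, 1.33, 2.40, 12.2 and 9.44 CPM in D1 Susceptible libraries. In D2 it was at 98.8, 125, 68.5, 91.1 and 71.4 CPM in Control, 60.4, 109, 91.8, 87.5 and 42.0 CPM in Resilient and 29.1, 42.4, 71.3, 71.3 and 83.5 CPM in Susceptible libraries. The 5 D1 Resilient libraries lay close together, whereas D1 Susceptible replicates 1, 4 and 5 and D1 Control replicate 1 were high within their groups. Vtn differed by 5.46 in Resilient (SE 0.554, edgeR adjusted p = 2.84e-07) and 3.24 in Susceptible mice (SE 0.497, edgeR adjusted p = 5.54e-05).

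Kcnj8 and Abcc9 encode the pore and the sulfonylurea receptor of a potassium channel of pericytes, and they are neighbours on chromosome 6. Kcnj8 was at 0.441, 0.136, 0.170, 0.388 and 0.267 CPM in D1 Control, 0.225, 0.193, 0, 0.0544 and 0.259 CPM in D1 Resilient and 1.22, 0.209, 0.286, 1.03 and 0.513 CPM in D1 Susceptible libraries. Its D2 values were 7.56, 7.60, 4.16, 5.81 and 3.90 CPM in Control, 4.26, 7.40, 5.35, 6.49 and 3.48 CPM in Resilient and 3.69, 7.26, 6.68, 6.63 and 7.93 CPM in Susceptible libraries. The 0, in D1 Resilient replicate 3, allows up to 0.0620 CPM, and no D1 library reached the lowest D2 library. Kcnj8 differed by 5.17 and 3.42, and Abcc9 by 5.09 and 2.89, in Resilient and Susceptible mice. Rgs5, a regulator of G protein signalling that marks pericytes, averaged 6.30 ± 0.945 CPM in D1 and 72.0 ± 23.7 CPM in D2 Resilient libraries (SD, n = 5), a log2 difference of 3.51 (edgeR adjusted p = 4.13e-10). In Susceptible libraries it averaged 12.2 ± 4.78 and 78.2 ± 9.77 CPM (SD, n = 5), a log2 difference of 2.70.

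Pdgfrb, the receptor by which pericytes are recruited to vessels, ranged over 0.827 to 1.66 CPM in D1 and 5.41 to 15.7 CPM in D2 Resilient libraries, a log2 difference of 3.42. In Susceptible libraries it was at 7.31, 1.18, 0.913, 2.08 and 1.78 CPM in D1 and 10.8, 3.62, 8.81, 13.4 and 12.8 CPM in D2, so that D1 replicate 1 lay above D2 replicate 2. Its difference there was 2.04 (edgeR adjusted p = 0.000932). When the fit held the D1 and D2 Susceptible libraries alone, the calls of Pdgfrb (edgeR adjusted p = 0.0587), Notch3 (0.119) and Anpep (0.244) were lost, as were those of the endothelial genes Slc2a1 (0.127), Fli1 (0.0666) and Egfl7 (0.0783). Cspg4, the NG2 proteoglycan, which oligodendrocyte precursors also make, differed by 2.69 in Resilient and 2.03 in Susceptible mice. Higd1b, a small membrane protein of pericytes, differed by 4.45 and 3.25, and Notch3, the Notch receptor of mural cells, by 4.22 and 1.96. Anpep, an aminopeptidase also called CD13 and kept by the filter through its D2 values, differed by 4.26 in Resilient and 2.77 in Susceptible mice. The Susceptible call of Anpep was lost without D2 Susceptible replicate 2 and without any one of D1 Susceptible replicates 2, 3 and 4, with adjusted p values of 0.126, 0.10, 0.0996 and 0.0850 in that order.

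Acta2, the smooth muscle actin, was scarce in both lines. In D1 it was at 0.205, 0.204, 0.226, 0.185 and 0 CPM in Control, 0.0187, 0, 0.0414, 0.0907 and 0.425 CPM in Resilient and 0.101, 0.0950, 0.197, 0.412 and 0.440 CPM in Susceptible libraries. In D2 it was at 0.680, 1.23, 1.58, 2.34 and 0.0717 CPM in Control, 0.178, 0.913, 1.01, 0.927 and 0.342 CPM in Resilient and 2.17, 0, 1.56, 0.934 and 0.544 CPM in Susceptible libraries. Values at 0 allow up to 0.0728 and 0.0580 CPM in the D1 libraries and 0.0543 CPM in the D2 library, and the lines overlapped in every group. Its fitted difference of 2.52 in Resilient mice had a standard error of 1.01 (edgeR adjusted p = 0.171), and that of 2.00 in Susceptible mice one of 0.983 (edgeR adjusted p = 0.138). Without D1 Resilient replicate 5 the Resilient difference was 4.05, with an edgeR adjusted p of 0.0280. Myh11, the smooth muscle myosin, was at 0.637, 0.948, 0.848, 0.562 and 0.259 CPM in D1 and 1.07, 1.31, 0.954, 0.927 and 1.09 CPM in D2 Resilient libraries, and at 0.406, 0.589, 0.590, 1.09 and 0.458 CPM in D1 and 0, 0, 1.12, 0.888 and 1.26 CPM in D2 Susceptible libraries. The differences were 0.71 (edgeR adjusted p = 0.826) and 0.05 (edgeR adjusted p = 0.969), the second being the smallest of the 38 in Susceptible mice. Tagln, an actin-binding protein of smooth muscle whose exons overlap Pcsk7 on the other strand, ranged over 3.54 to 5.38 CPM in D1 and 5.41 to 8.42 CPM in D2 Resilient libraries and differed by 0.64 and 0.13. Exons of other annotated genes also overlap Abcb1a, Slc2a1, Sox17, Abcc9 and Notch3, whose counts are uncertain to that extent.

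Not overlapping between lines was counted as well. All 5 D2 libraries lay above all 5 D1 libraries for 33 of 38 members in Resilient mice, where 5.01% of all genes tested did so, and for 27 in Susceptible mice, where 4.12% did. Anpep, kept by the filter through its D2 values, was among the 33, and Arhgef15, listed for its D2 Susceptible level, among the 27. More than 2-fold higher fitted means in D2 were seen for 33 members in Resilient mice (9.11% of all genes) and for 33 in Susceptible mice (12.3% of all genes). Anpep was in both of these counts. Its place and that of Arhgef15 are not independent of how they were kept or chosen.

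Per kilobase of exon the order of the genes differed between lines. In D1 Control libraries Bsg led with 211 ± 12.2 RPKM (CPM per kilobase of exon, SD, n = 5), followed by Itm2a at 12.2 ± 0.975 and Arhgef15 at 4.85 ± 0.308, and Cldn5 stood at 4.17 ± 1.93. In D2 Control libraries Bsg led with 276 ± 13.1 RPKM, followed by Vtn at 44.8 ± 11.3 and Cldn5 at 44.4 ± 17.6, which did not differ beyond their spread. Vtn stood at 2.17 ± 1.88 RPKM in D1 Control libraries. These are levels and not differences, and the lowest-ranked genes were Anpep in D1 (0.0326 ± 0.0185 RPKM) and Myh11 in D2 (0.111 ± 0.0358 RPKM).

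Other genes of the pathway were taken from lists of vessel ligands, receptors, transcription factors and further endothelial and mural genes, 84 in all and all tested. Of these 54 were higher and none lower in D2 in Resilient mice, and 59 were higher and 3 lower in Susceptible mice, with medians of 1.88 and 1.42. Over all genes tested 3.9% were higher in D2 in Resilient and 13.4% in Susceptible mice. Which of the 84 the filter kept only through D2 libraries was not checked, so some calls may not be independent of the filter. Ligands stood lowest: 4 of 15 were higher in Resilient mice, and 4 were higher and 2 lower in Susceptible mice. Receptors were higher for 13 of 18 and 14 of 18, transcription factors for 10 of 15 and 13 of 15, further endothelial genes for 18 of 24 and 19 of 24 (1 lower in Susceptible mice), and further mural genes for 9 of 12 in both groups. Taken by the smallest adjusted p in Resilient mice, Adgrl4, an adhesion G protein-coupled receptor of vessels, differed by 3.99 (SE 0.360, edgeR adjusted p = 8.47e-09), from 0.695 ± 0.296 CPM in D1 to 11.1 ± 2.97 CPM in D2 (SD, n = 5). Ptprb, the endothelial phosphatase that restrains the TIE2 receptor, differed by 2.64 (SE 0.257, edgeR adjusted p = 3.11e-08). Car4, a membrane carbonic anhydrase of capillaries, differed by 2.78 (SE 0.277, edgeR adjusted p = 4.67e-08), and Atp13a5, a transport ATPase of brain pericytes, by 4.70 (SE 0.480, edgeR adjusted p = 7.27e-08). In Susceptible mice these 4 differed by 2.34, 2.18, 2.37 and 2.79 in that order.

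Averaged per library as log2 CPM, the 26 endothelial genes lay between 0.68 and 2.23 in the 15 D1 libraries and between 2.76 and 4.14 in the 15 D2 libraries, without overlap. For the 9 pericyte genes the ranges were -1.58 to 1.57 and 2.21 to 3.78, also without overlap. The 3 smooth muscle genes ranged from -1.33 to 0.50 in D1 and from -3.04 to 1.23 in D2, where the lowest was D2 Susceptible replicate 2. Within the D1 line the 4 libraries with the highest endothelial means were Susceptible replicates 1, 4 and 5 and Control replicate 1, at 2.23, 2.08, 1.59 and 1.78. The same 4 held the highest Adora2a of the D1 line, at 293, 314, 259 and 238 CPM, against 105 to 227 CPM in the other 11. Within the D2 line the lowest endothelial mean, 2.76 in Resilient replicate 5, came with the lowest Adora2a. The next lowest, 3.51 in Control replicate 5, came with the next lowest Adora2a, 751 CPM, and with Drd1 at 247 CPM. The mean that followed, 3.54 in Susceptible replicate 2, went the other way, with the highest Adora2a of the D2 line, 1457 CPM. D2 Resilient replicate 5 was the lowest of its group for 32 of 38 members. The part of Adora2a or Drd1 levels in the vessel gene levels was not tested.

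**Figure D3:**
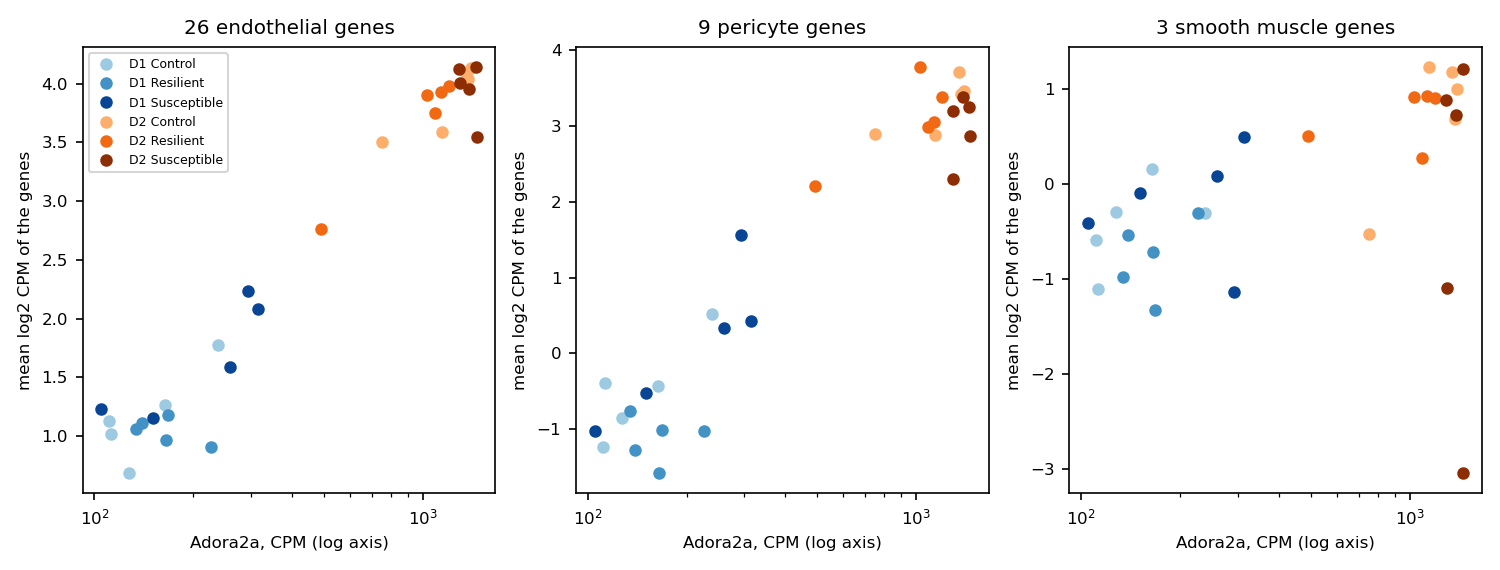
Mean log2 CPM (y axis) of the endothelial, pericyte and smooth muscle members in each of 30 libraries (points, coloured by group) against Adora2a in CPM (x axis, log scale). The endothelial means of D1 libraries end at 2.23, below the lowest D2 library at 2.76, and D2 Susceptible replicate 2 lies at -3.04 for smooth muscle genes.

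Markers of other cell types also differed between lines, and their part in the vessel gene differences was not tested. Whether the filter kept any of these markers only through D2 libraries was not checked either. At the same threshold 3.9% of all genes tested were higher in D2 in Resilient and 13.4% in Susceptible mice. All 5 red blood cell genes were higher in D2 in both stressed groups, with medians of 4.94 in Resilient and 4.28 in Susceptible mice, above those of the endothelial genes. Their summed level was 3.08 to 6.02 CPM in D1 and 73.5 to 148 CPM in D2 Resilient libraries, and 3.78 to 20.9 and 99.1 to 280.1 CPM in Susceptible libraries. Astrocyte genes were higher for 7 of 8 in Resilient and 6 of 8 in Susceptible mice, with medians of 1.97 and 1.23 and summed levels of 283 to 382 CPM in D1 and 328 to 754 CPM in D2 Resilient libraries. In Susceptible libraries these sums were 375 to 666 and 588 to 705 CPM, so astrocyte RNA was plentiful in both lines. Fibroblast genes, 7 of 8 tested, had medians of 2.18 and 1.93, with 2 and 3 of them called, and summed levels of 2.05 to 4.08 CPM in D1 and 7.12 to 17.4 CPM in D2 Resilient libraries. The summed fibroblast levels in Susceptible libraries were 2.34 to 5.99 CPM in D1 and 8.75 to 20.7 CPM in D2.

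Markers of microglia and of the myelin lineage had smaller medians than the vessel genes. Of all genes tested, 3.9% in Resilient and 13.4% in Susceptible mice were higher in D2, and 6.65% and 23.9% differed in either direction. The share lower in D2 is not given. Microglia genes were called by edgeR for 3 of 8 in Resilient and 0 of 8 in Susceptible mice, with medians of 1.05 and 0.52. At an unadjusted p under 0.05 there was 1 of 8 in Susceptible mice, no more than the share over all genes, 7084 of 19368. Perivascular macrophage genes were called for 1 of 4 in both groups, with medians of 1.57 and 3.57, and in Resilient mice Lyve1 and Pf4 were at 0 in at least 1 library of each line. Oligodendrocyte genes were higher for 3 and 5 of 8, with medians of 0.82 and 0.78, and oligodendrocyte precursor genes for 3 and 1 of 6, with medians of 1.00 and 0.47. Ependymal and choroid plexus genes, 4 of 6 tested, were called for 1 and 0, with 0 of 4 at an unadjusted p under 0.05 in Susceptible mice. Genes of interneurons went the other way, with 4 of 6 lower in D2 in each stressed group, 1 higher in Susceptible mice, and medians of -1.79 and -1.89.

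**Figure D4:**
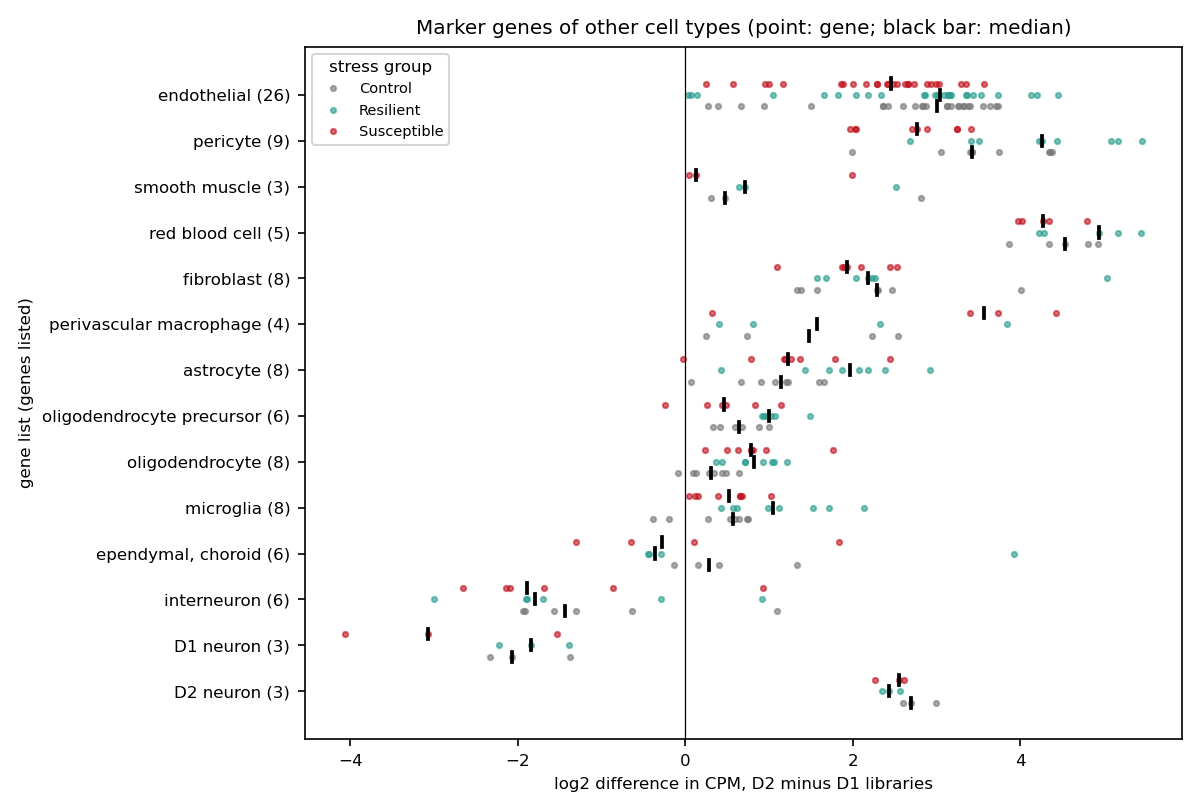
Log2 difference in CPM between D2 and D1 libraries (x axis) for each gene (points) of marker lists of cell types (y axis, number of genes listed in brackets), coloured by stress group, with the median as a black bar. Red blood cell genes lie furthest to the right, with a median of 4.94 in Resilient mice, and interneuron genes lie mostly left of 0.

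Within each driver line the stress groups were compared next. In D1 libraries no member passed the threshold in Resilient against Control (0% of all genes tested did; 4 members at an unadjusted p under 0.05, and 0 by DESeq2 and by voom), Susceptible against Control (0%; 8 members unadjusted, 0 by DESeq2 and by voom) or Susceptible against Resilient (0%; 19 members unadjusted, 3 by DESeq2, 0 by voom). Of the 19368 genes tested, 503, 465 and 675 were under 0.05 unadjusted in these comparisons, in that order. No share over all genes is given for the DESeq2 calls. The Susceptible against Resilient differences were positive for 34 of 38 members, with medians of 0.60 over the endothelial and 1.22 over the mural genes and -0.0066 over all genes tested. Abcc9 had the largest, 2.29 (SE 0.575, edgeR adjusted p = 0.557), from values of 0.112, 0.232, 0.165, 0.163 and 0.314 CPM in Resilient and 3.75, 0.361, 0.340, 1.09 and 0.257 CPM in Susceptible libraries, which overlapped. Notch3 followed at 2.11 (edgeR adjusted p = 0.701), Kcnj8 at 2.01 (edgeR adjusted p = 0.619) and Abcb1a at 1.88 (edgeR adjusted p = 0.481). By the DESeq2 Wald test Abcc9, Kcnj8 and Abcb1a passed, with adjusted p values of 0.0117, 0.0423 and 0.00963 in that order. In each of these 3 the high values were D1 Susceptible replicates 1 and 4, and also replicate 5 for Abcb1a and Kcnj8, the libraries that also held the most Adora2a. Without D1 Susceptible replicate 3, a low one, Abcb1a passed in edgeR as well (2.17, adjusted p = 0.0457).

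Markers of several other cell types had mostly positive differences too in D1 Susceptible against Resilient libraries, none of them called by edgeR, and their part in the vessel gene differences was not tested. All 5 red blood cell genes were positive, with a median of 1.31 (4 at an unadjusted p under 0.05). All 8 astrocyte genes were positive with a median of 0.63 (2 unadjusted), all 6 oligodendrocyte precursor genes with 0.59 (2 unadjusted), all 8 microglia genes with 0.44 (1 unadjusted) and all 8 oligodendrocyte genes with 0.20 (0 unadjusted). Fibroblast genes were positive for 6 of 7 with a median of 0.43 (0 unadjusted), and perivascular macrophage genes for 2 of 4 with a median of -1.13. The astrocyte median, 0.63, was close to the endothelial one, 0.60. Summed astrocyte levels were 283 to 382 CPM in D1 Resilient and 375 to 666 CPM in D1 Susceptible libraries. Against Control, the D1 Resilient differences were negative for 28 of 38 members (mural median -0.55, endothelial -0.07), with 0 of 8 astrocyte genes (median -0.78), 0 of 8 oligodendrocyte genes (-0.62) and 0 of 8 microglia genes (-0.54) positive, and the D1 Susceptible ones positive for 36 (mural median 0.52, endothelial 0.46). These 2 comparisons share the Control libraries, which also served the comparison that named Ly6a and Ly6c1.

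In D2 libraries the medians over the 38 members lay nearer 0, at -0.11, 0.06 and 0.15 in the same order of comparisons. None of the members passed in Resilient against Control (0% of all genes; 0 members at an unadjusted p under 0.05, and 0 by DESeq2 and by voom), and none in Susceptible against Control (0.00516% of all genes; 3 members unadjusted, 1 by DESeq2, 0 by voom). Of the 19368 genes tested, 814 and 3038 were under 0.05 unadjusted in these comparisons, so the 3 members were no more than the share over all genes. In Susceptible against Resilient 1 of 38 passed, where 0.0516% of all genes did. It was Arhgef15, which an earlier result of this comparison had put on the list, so its difference of 0.42 (SE 0.0841) is a description. The 5 D2 Susceptible values given above lay above all 5 D2 Resilient and all 5 D2 Control values. It passed without D1 Resilient replicate 4, D2 Control replicate 4 or 5, D2 Resilient replicate 1 or D2 Susceptible replicate 3, 4 or 5, and no longer passed without any one of the other libraries or with both D2 Susceptible replicates 1 and 2 left out. Its D2 Susceptible minus Control difference, on the same Susceptible libraries, was 0.36.

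Egfl7 had the next smallest adjusted p in D2 Susceptible against Resilient, with a difference of 0.86 (SE 0.224, edgeR adjusted p = 0.0659), with D2 Resilient values of 7.96, 9.92, 11.3, 14.4 and 8.24 CPM beside the Susceptible ones given above, which overlapped. Without D2 Susceptible replicate 3, 4 or 5 it passed (0.99, 0.94 and 1.00, adjusted p = 0.0107, 0.0390 and 0.0126), and by DESeq2 it passed in all libraries (0.88, adjusted p = 0.0151). Over the 26 endothelial genes the median was 0.27 and over the 12 mural genes 0.08, against -0.034 over all genes tested.

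**Figure D5:**
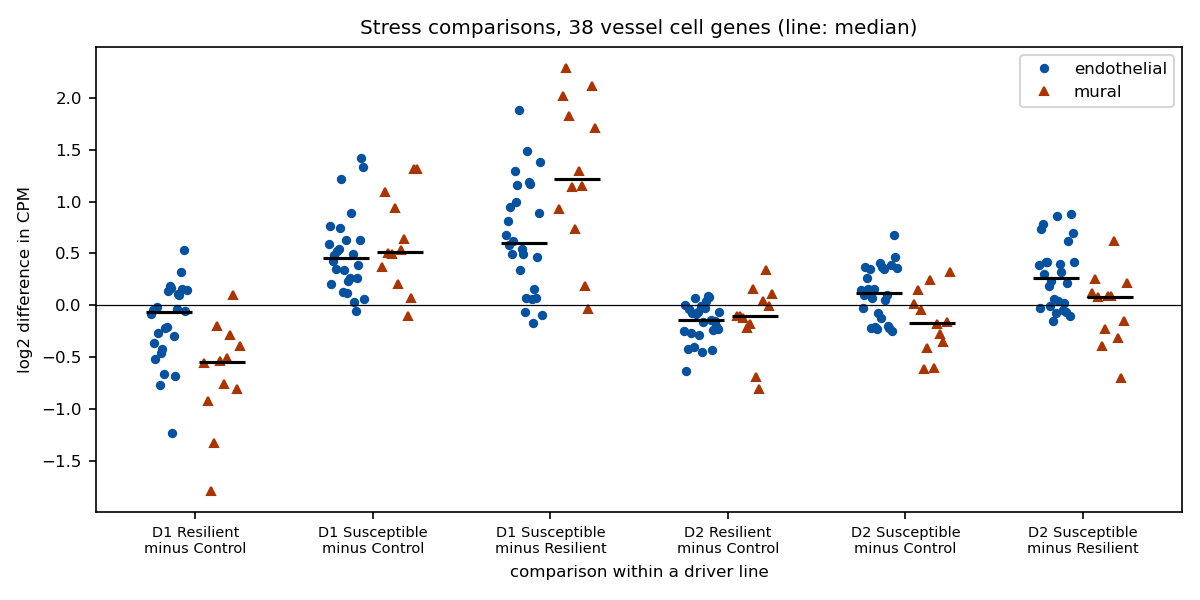
Log2 difference in CPM (y axis) of the 38 members (points, endothelial as circles and mural as triangles) in 6 comparisons of stress groups within a driver line (x axis), with the median as a line. D1 Susceptible minus Resilient has the highest medians, 0.60 and 1.22. Only Arhgef15 passed the threshold by edgeR, in D2 Susceptible minus Resilient, the comparison that had put it on the list.

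Whether the gap between driver lines itself differed between stressed groups was tested with the interaction. No member passed by edgeR (0% of all genes did), and 12 were under 0.05 unadjusted, where 2404 of 19368 genes tested were. DESeq2 called 1 member, Arhgef15. Its value of 0.51 in both tools is a description, since the interaction holds the comparison that put it on the list. The gap was smaller in Susceptible than in Resilient mice for 32 of 38 members and for 12 of 12 mural genes, whose median interaction was -1.29, against -0.39 over the endothelial and -0.046 over all genes. D1 Susceptible replicate 1, which stood apart in its counts, was the highest of its group for 18 and the lowest for 5 of 38 members. Replicate 4 of that group was the highest for 12 and the lowest for 1. The part of these libraries in the smaller gap was not tested. Notch3 had an interaction of -2.26 (SE 0.819, edgeR adjusted p = 0.289), Vtn of -2.22 (SE 0.674, edgeR adjusted p = 0.249) and Abcc9 of -2.20 (edgeR adjusted p = 0.269), so at 5 libraries a group these gaps were not shown to differ.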

How the data were processed

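Ribosome-bound RNA was sequenced from nucleus accumbens of 30 pools of 4 mice. Reads were aligned with HISAT2 to GRCm38 (mm10) and counted with HTSeq, per the submitters' processing notes, and the authors deposited whole-number counts per gene; program versions and strandedness are not stated there. Gene names came from GENCODE M21, which matched 55154 of 55335 identifiers. Lines that name no gene held 10.1% to 53.3% of reads and stayed out of library sizes.

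The members and lists were chosen with earlier results of these data known. Genes were kept by edgeR filterByExpr (minimum count 10, minimum total 15), which left 19368 and set aside 35967. edgeR 4.0.16 (R 4.3.3) fitted its robust quasi-likelihood test with TMM scaling to all 6 groups in one model (common dispersion 0.172), with Benjamini-Hochberg adjustment over all genes tested and a threshold of 0.05. D2 minus D1 in Control libraries was fitted over all genes for the background shares, and the members' calls in it are not reported, since it had pointed to members. Alternatives used DESeq2 1.42.0, limma 3.58.1 (voom with sample weights) and sva 3.50.0, other settings of edgeR, and each library left out in turn. Of the members, 18 spread over the roles were set out in more detail, with those called in a stress comparison, the largest and smallest differences between lines, and up to 4 pathway genes in each direction by the smallest adjusted p in Resilient mice. Replicates differed by more than sampling noise, so all 30 libraries were counted. Figures were drawn with matplotlib 3.10.9.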

Additional observations from a re-analysis of the deposited data

Results flagged for a closer look

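Within single groups of 5 libraries, 15 of 126 checks had 1 library far from the other 4 by Dixon's ratio (above 0.71), a criterion that chance meets in about 1 in 20. D1 Control replicate 1 was the highest of its group for Ly6a (4.20 CPM, others 2.03 to 2.65), Tek (3.79, others 0.783 to 0.980), Rgs5 (13.5, others 7.22 to 8.77) and Vtn (11.2, others 2.37 to 3.18). D2 Resilient replicate 5 was the lowest of its group for Ly6a (11 CPM, others 24.2 to 27.4), Cldn5 (13.9, others 43.7 to 54.0), Flt1 (17.3, others 56.8 to 67.7) and the mean log2 CPM of the 26 endothelial genes (2.76, others 3.75 to 3.98). In both libraries several vessel genes stood apart together.

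In the other libraries 1 or 2 genes stood apart. Mfsd2a was high in D1 Susceptible replicate 5 (2.59 CPM, others 0.716 to 1.22) and Arhgef15 in D1 Resilient replicate 4 (40.6, others 32.9 to 34.1). Pdgfrb was high in D1 Resilient replicate 5 (1.66 CPM, others 0.827 to 1.03) and in D1 Susceptible replicate 1 (7.31, others 0.913 to 2.08). Acta2 was at 0 in D1 Control replicate 5 (others 0.185 to 0.226 CPM) and high in D1 Resilient replicate 5 (0.425, others 0 to 0.0907). Myh11 was high in D1 Susceptible replicate 4 (1.09 CPM, others 0.406 to 0.590).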

How the results depend on the processing

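Under 39 alternatives, 2 of them chosen after seeing the data, the members called between lines numbered 32 to 35 in Resilient mice (main 32; 32 to 33 with 1 library left out) and 28 to 35 in Susceptible mice (main 34; 33 to 34 with 1 library left out), the 28 with only the groups compared in the fit. Pathway genes called in Susceptible mice numbered 62, 35 with only the groups compared and 49 to 61 with 1 library left out. The cause was not tested. Stress counts rested on few genes. DESeq2 called 3 members between D1 Susceptible and Resilient, 1 between D2 Susceptible and Control, 2 between D2 Susceptible and Resilient, and 1 in the interaction. With 1 library left out these 4 counts ran over 0 to 1, 0 to 1, 0 to 2 and 0 to 1. No share over all genes is given for the counts under these alternatives, so they stand without a background. The 1 member in D2 Susceptible against Resilient became 0 with voom, no filter, only the groups compared, the replicate block, 1 surrogate variable, D2 Susceptible replicates 1 and 2 left out, or all 4 libraries that stood apart left out. Small differences between lines turned sign: Egfl7 in Resilient mice, main 0.03, was -0.026 with 1 surrogate variable and -0.14 to 0.11 with 1 library left out. In Susceptible mice Myh11, main 0.05, was -0.0078 with the replicate block and -0.35 to 0.34 with 1 library left out, and Tagln, main 0.13, was -0.056 to 0.29. Replicate numbers did not pair the libraries: over 75 same-numbered pairs the correlation of deviations ran from -0.143 to 0.0682, and 2 of 30 libraries correlated best with their own number. Depth limits Acta2, Myh11, Anpep, Kcnj8 and Higd1b, each at 0 in at least 1 library.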
